A study of Mus musculus with 72 samples.

Results

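Small RNA libraries of the right cerebellum and the left striatum were compared in uninjured wild-type mice. The cerebellum libraries numbered 6 and the striatum libraries 6, 12 of the 71 libraries in the count tables, and they were chosen by their labels alone: the wild-type genotype, the naive treatment and the region. All 12 came from male mice. The sources give no age for naive mice, but list them at the same time point as the injured animals of the study, 12 weeks after a sciatic nerve crush made at 12 weeks of age. The other groups of the series were wild-type mice with that crush and Thap1+/- mice, naive or crushed, heterozygous for Thap1, whose human counterpart is the DYT6 dystonia gene. RNA from cerebellum was extracted with a miRNeasy mini kit and RNA from striatum and cortex with a miRNeasy micro kit, and each library was built from 10 ng with a QIAseq miRNA UDI kit, per the labels' protocols. Every difference between the regions below is therefore also a difference between kits, and the effects of kit and region cannot be told apart. Left and right sides also differ between the regions, and the same holds for side.

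A miRNA is an RNA of about the length of the sequences printed below that guides Argonaute proteins to messenger RNAs, mostly by pairing of its seed, bases 2 to 8, and lowers their translation or stability. Each hairpin precursor gives a 5p and a 3p arm, of which 1 usually dominates. The cerebellum is a hindbrain region whose most numerous cells are small excitatory granule neurons. The striatum is a forebrain region made up mostly of inhibitory medium spiny neurons that receive dopamine. In whole tissue, fewer cells of a type and less miRNA per cell cannot be told apart.

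The joined table listed 1927 mature miRNA features, of which 942 had a count in at least 1 of the 12 libraries and 542 passed the filter on low counts and were tested. The cerebellum libraries held 10545342 to 12381246 counts and the striatum libraries 10734153 to 11799412 counts. Between 632 and 667 miRNAs were detected in a cerebellum library and between 693 and 714 in a striatum library. The first principal component carried 77.6% of the variance of log2 levels and separated the regions. Levels below are CPM, counts scaled to library size with TMM factors, a scaling that assumes that most miRNAs do not differ. Its factors were 0.784 to 0.983 in cerebellum and 1.11 to 1.27 in striatum. Single libraries are named by the number that ends their column in the count tables, 118, 124, 136, 31, 67 and 96 in both regions.

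The sequences that carry the main differences are shown first, grouped by seed. They are the mature miRNAs of RefSeq (GRCm38.p6), in lower case with the seed in capitals, and 1660 of the 1927 features had an entry. The members of the miR-10 pair, both far higher in cerebellum, share their seed:
miR-10a-5p: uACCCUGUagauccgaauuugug
miR-10b-5p: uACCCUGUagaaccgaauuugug
The miR-15/16 seed is carried by a pair that was far higher in cerebellum, by others that differed little and by 1 that was lower:
miR-195a-5p: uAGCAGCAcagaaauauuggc
miR-497a-5p: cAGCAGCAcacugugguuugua
miR-16-5p: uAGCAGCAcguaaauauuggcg
miR-15a-5p: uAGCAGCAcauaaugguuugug
miR-15b-5p: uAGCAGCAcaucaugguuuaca
miR-322-5p: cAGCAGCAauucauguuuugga
The next seed is shared by a miRNA that was higher in cerebellum, miR-34a-5p, and by one that was lower, miR-449a-5p:
miR-34a-5p: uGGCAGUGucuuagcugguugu
miR-449a-5p: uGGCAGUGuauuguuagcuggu
All 4 members of the miR-181 family were higher in cerebellum, the pair from chromosome 8 (miR-181c-5p and miR-181d-5p) by more than the others:
miR-181a-5p: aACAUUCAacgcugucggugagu
miR-181b-5p: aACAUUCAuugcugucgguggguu
miR-181c-5p: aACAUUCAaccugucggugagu
miR-181d-5p: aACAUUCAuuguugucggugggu
Other miRNAs that stood out as higher in cerebellum were these:
miR-206-3p: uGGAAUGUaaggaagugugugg
miR-204-5p: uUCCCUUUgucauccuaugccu
miR-182-5p: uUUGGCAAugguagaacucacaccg
Those that stood out as lower in cerebellum were these, the last pairs sharing a seed:
miR-3099-3p: uAGGCUAGagagagguugggga
miR-139-5p: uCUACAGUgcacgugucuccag
miR-139-3p: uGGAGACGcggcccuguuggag
miR-137-3p: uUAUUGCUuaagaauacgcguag
miR-138-5p: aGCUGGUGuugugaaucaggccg
miR-31-5p: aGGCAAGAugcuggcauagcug
miR-221-3p: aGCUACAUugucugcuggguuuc
miR-222-3p: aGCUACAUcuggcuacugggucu
miR-132-3p: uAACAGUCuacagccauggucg
miR-212-3p: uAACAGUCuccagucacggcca

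Most tested miRNAs differed between the regions. With edgeR's quasi-likelihood test at an adjusted p of 0.05, 384 of 542 miRNAs (70.8%) passed, 174 of them (32.1%) higher in cerebellum and 210 (38.7%) lower. Tested against a fold change of 2 in place of no change, 148 (27.3%) passed, 55 higher (10.1%) and 93 lower (17.2%). The libraries of the regions did not overlap for 292 miRNAs (53.9%), and every statement on overlap below stands beside this share. The median log2 fold change, cerebellum over striatum, was -0.08 over all tested miRNAs, and the median of its absolute value was 0.78. The split into higher and lower rests on the scaling: 243 were higher and 165 lower under upper quartile scaling, which moved the median of all miRNAs by 0.35, and 108 were higher and 291 lower with total counts alone, which moved it by -0.47. The 15 miRNAs higher and 15 lower with the largest changes were taken at mean levels from 100 CPM up. They kept direction and call under every alternative run for them. Those alternatives numbered 22, or 21 for let-7g-5p and let-7c-5p, which the scaling without let-7 leaves out. In all 30 the libraries of the regions did not overlap. The 30 were chosen for the size of their change in these same libraries, and this choice favours both results.

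**Figure D1:**
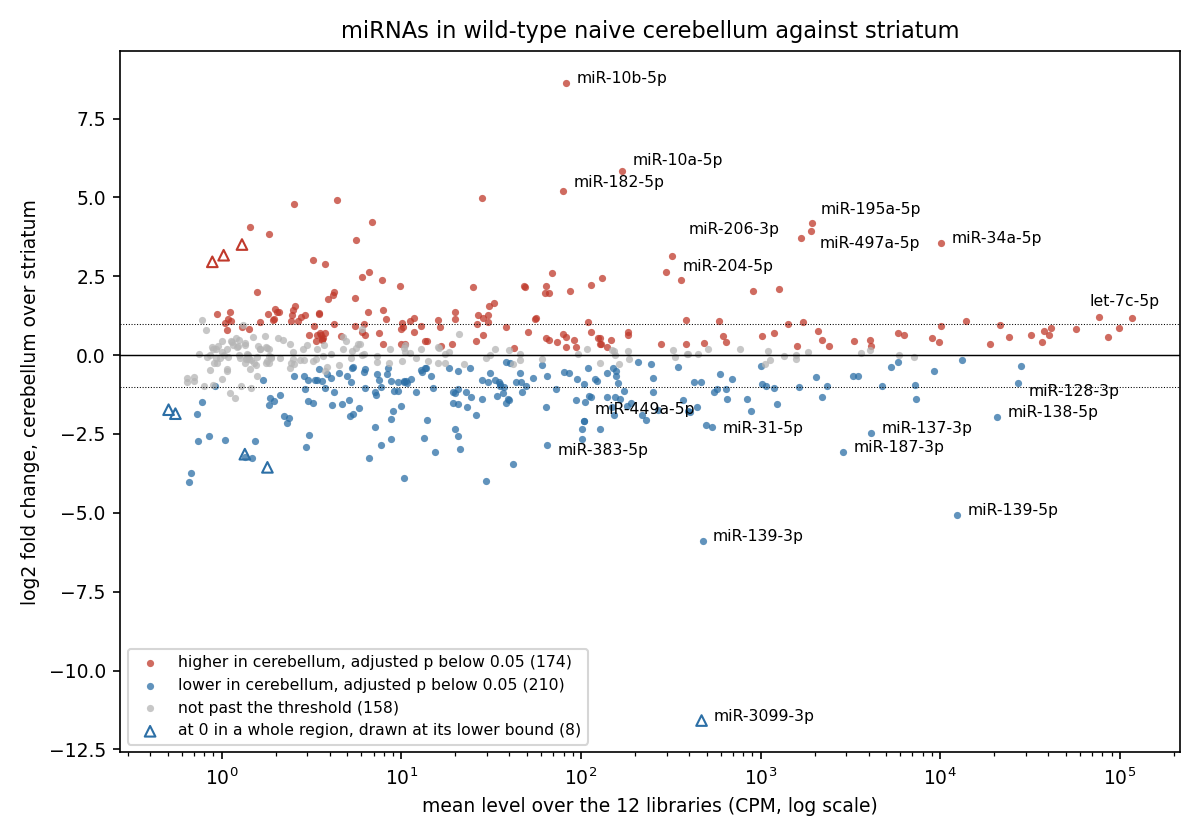
The mean level of each tested miRNA over the 12 libraries (CPM, log axis) is plotted against its log2 fold change, cerebellum over striatum, with dotted lines at a fold change of 2 in either direction. Higher miRNAs number 174 and lower ones 210; open triangles mark the 8 miRNAs at 0 counts in every library of a region, drawn at the bound that 3 counts per library allow.

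The most abundant miRNAs of both regions were members of the let-7 family, which represses growth and proliferation genes and accumulates in differentiated tissue. let-7c-5p ranked first in both regions, with a share of 13.6% ± 0.604 of counts in cerebellum and 8.41% ± 0.591 in striatum (SD, n = 6 each). Together let-7 and miR-98 took 58.4% ± 2.25 of all counts in cerebellum and 44.5% ± 1.85 in striatum, and the lowest cerebellum library, at 55.4%, lay above the highest striatum library, at 47.6%. All 9 tested members of the family were called higher in cerebellum, beside 32.1% over all tested miRNAs. Their median log2 fold change was 0.76, but with total counts alone 6 were higher and 1, miR-98-5p, was lower. let-7g-5p, from an intron of Wdr82 at chr9:106178846-106178867 (+), had 87514, 110088 and 122948 CPM as lowest, median and highest in cerebellum, against 42398, 45707 and 51579 CPM in striatum. let-7c-5p had 130889, 160501 and 185052 CPM in cerebellum, against 64639, 71582 and 78366 CPM in striatum. Neither range overlapped, and the log2 fold changes were 1.20 ± 0.08 (SE, adjusted p = 7.3e-09) for let-7g-5p and 1.17 ± 0.08 (adjusted p = 7.8e-09) for let-7c-5p. let-7a-5p, let-7b-5p and let-7f-5p, the other members among the 5 most abundant of both regions, had smaller log2 fold changes of 0.86, 0.82 and 0.58. The members differ by few bases, so how reads divide among them is uncertain. Scaling without let-7 and miR-98 left 178 miRNAs higher and 200 lower.

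**Figure D2:**
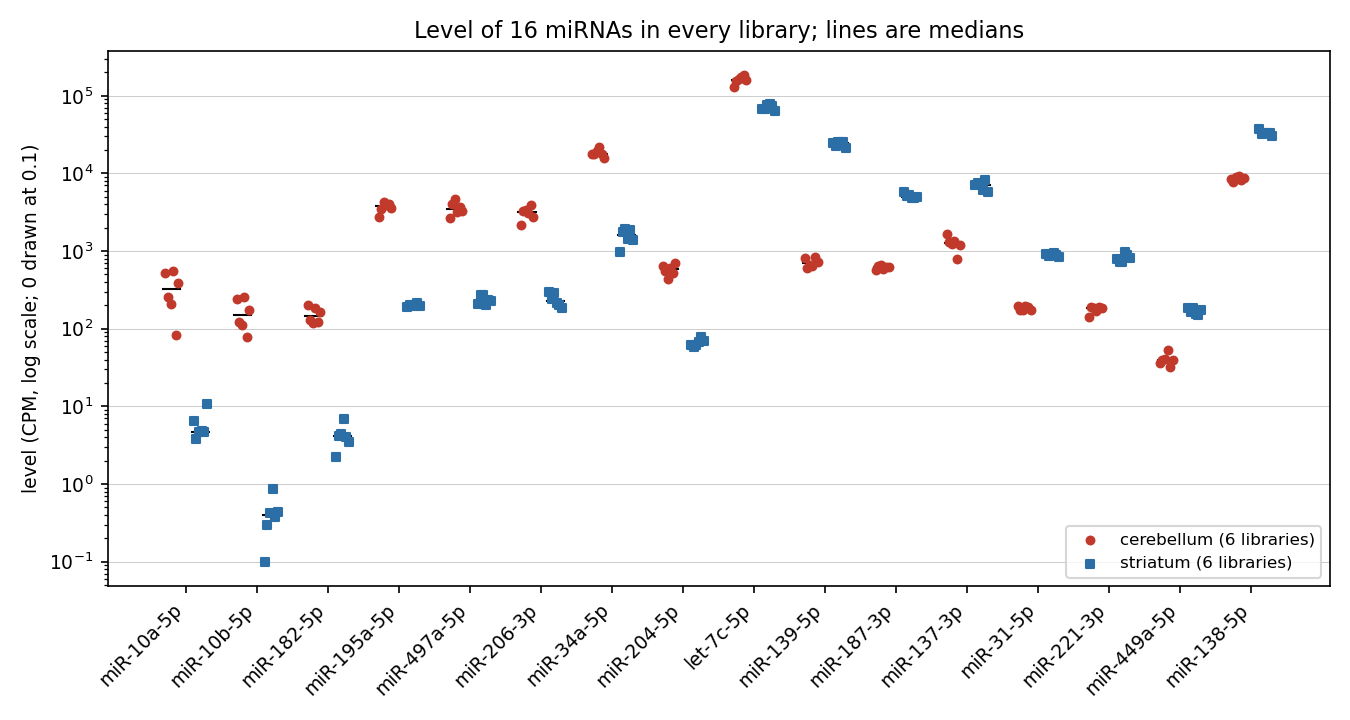
The level (CPM, log axis) of 16 miRNAs is shown in each cerebellum library, left, and each striatum library, right, with lines at the medians and a count of 0 drawn at 0.1. For each of the 16, the libraries of the regions do not overlap.

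miR-10a and miR-10b sit in the Hox gene clusters, which pattern the spinal cord and part of the hindbrain and are largely silent in the forebrain. miR-10a-5p, at chr11:96317186-96317208 (+), was counted at 83.4, 324 and 550 CPM as lowest, median and highest in cerebellum, against 3.75, 4.74 and 10.8 CPM in striatum. miR-10b-5p, inside introns of Hoxd3 and Hoxd4 at chr2:74726074-74726096 (+), had 78.2, 149 and 259 CPM in cerebellum, against 0, 0.397 and 0.857 CPM in striatum. The striatum libraries were at or near 0 for miR-10b-5p and every cerebellum library lay above every striatum library for both miRNAs. The log2 fold changes were 5.83 ± 0.46 (SE, adjusted p = 2.4e-08) for miR-10a-5p and 8.64 ± 0.45 (adjusted p = 2.35e-10) for miR-10b-5p. miR-615-3p, the third Hox miRNA tested, had 16 to 35 counts in cerebellum libraries and 0 in every striatum library, at least 11.4-fold higher against a floor of 3 counts per library. The other 2 Hox miRNAs of the list, miR-196a-5p and miR-196b-5p, did not pass the filter.

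The miR-183 cluster, known from sensory organs, was also higher. miR-182-5p had 120, 146 and 203 CPM in cerebellum, against 2.25, 4.13 and 6.85 CPM in striatum, a log2 fold change of 5.19 ± 0.24 (SE, adjusted p = 5.8e-11). miR-183-5p, 3724 bases from it on chromosome 6, had a log2 fold change of 4.98 ± 0.29 (adjusted p = 7.0e-10). All 3 tested members were higher beyond a fold change of 2, beside 10.1% over all tested miRNAs. The libraries of the regions did not overlap for miR-182-5p and miR-183-5p, as for 53.9% of all tested miRNAs.

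These miRNAs also differed among the cerebellum libraries. Among the 153 miRNAs that passed the test with at least 50 CPM in cerebellum, the coefficient of variation over the 6 cerebellum libraries had a median of 11.8%, and miR-10a-5p had the highest, 54.4%. miR-10a-5p stood at 515 CPM in library 118, 550 in 31, 389 in 96, 260 in 124, 210 in 136 and 83.4 in 67. miR-10b-5p followed the same order of libraries, with 259 CPM in library 31 and 78.2 CPM in library 67. miR-182-5p was above its mean in libraries 118, 31 and 96 and below it in the other 3, and so was miR-183-5p. The cerebellum libraries differed 6.59-fold for miR-10a-5p, and the lowest of them was still above every striatum library. The cause of this spread, including the part of neighbouring tissue, was not tested.

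**Figure D3:**
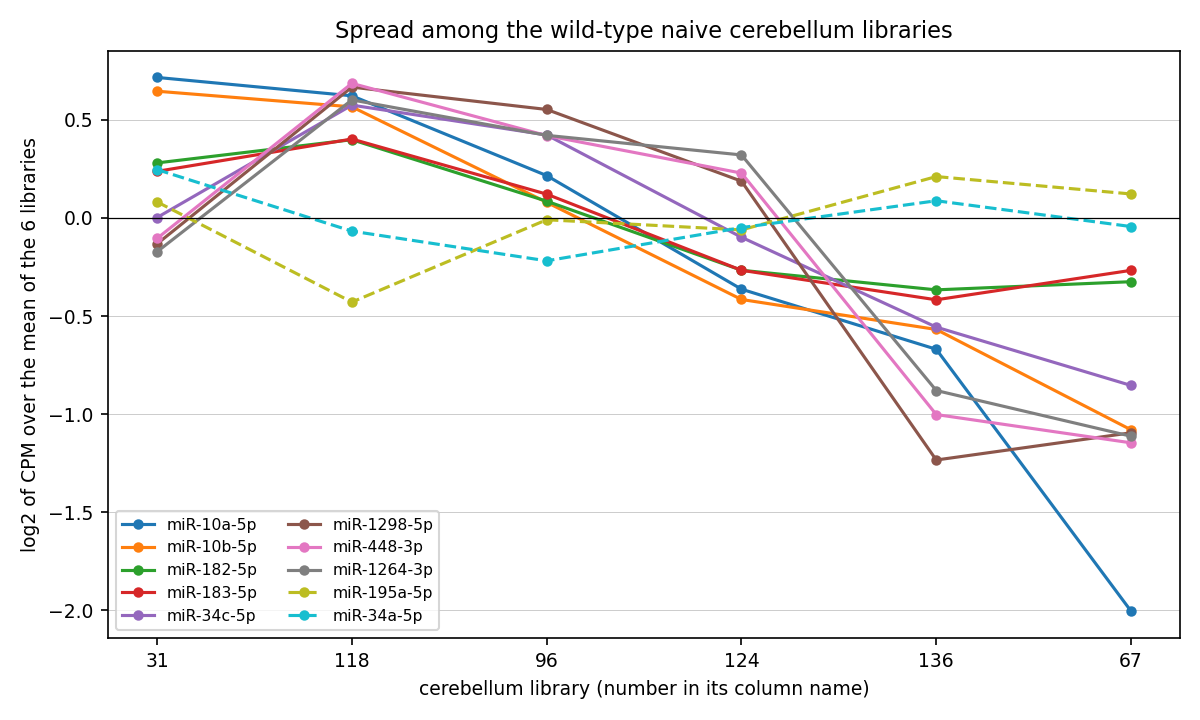
The log2 of a library's CPM over the mean of the 6 cerebellum libraries is plotted for 10 miRNAs, with the libraries named by number. The miR-10 and miR-183 miRNAs and those hosted by Htr2c are below their means in libraries 136 and 67; miR-10a-5p spans a 6.59-fold range. miR-195a-5p and miR-34a-5p are dashed, and libraries run from high to low miR-10a-5p.

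Hairpins in introns of Htr2c, the gene of the serotonin 2C receptor, on chromosome X gave an uneven picture. miR-1298-5p, at chrX:147064918-147064939 (+), had 217, 524 and 810 CPM in cerebellum, against 68.5, 83.8 and 90.2 CPM in striatum, and its log2 fold change was 2.64 ± 0.29 (SE, adjusted p = 1.2e-06). miR-448-3p, at chrX:147158281-147158302 (+), was named after its values were seen and had 53.9, 125 and 192 CPM in cerebellum, against 15.5, 19.3 and 22.4 CPM in striatum, with a log2 fold change of 2.62 ± 0.28 (adjusted p = 8.2e-07). miR-1264-3p and miR-764-3p, read from the same introns and likewise chosen after their values were seen, did not pass: miR-1264-3p had 53.9 to 177 CPM in cerebellum, against 107 to 160 CPM in striatum (log2 fold change -0.24, adjusted p = 0.40), and miR-764-3p had 17.9 to 42.5 CPM in cerebellum, against 27.9 to 35.2 CPM in striatum (0.01, adjusted p = 0.97). Within cerebellum, miR-1298-5p, miR-448-3p, miR-1264-3p and miR-764-3p were all highest in library 118 and all below their means in libraries 136 and 67; their co-variation was not tested. miR-764-3p had 42.5 CPM in library 118, 27.2 CPM in 136 and 17.9 CPM in 67.

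miR-195a-5p and miR-497a-5p are neighbours on chromosome 11, where their mature sequences lie 310 bases apart, at chr11:70235062-70235082 (+) and chr11:70234730-70234751 (+). Both restrain cell cycle genes in other tissues. miR-195a-5p had 2724, 3762 and 4244 CPM in cerebellum, against 188, 200 and 212 CPM in striatum. miR-497a-5p had 2639, 3492 and 4741 CPM in cerebellum, against 200, 232 and 275 CPM in striatum. The regions did not overlap for either, and the log2 fold changes were 4.20 ± 0.10 (SE, adjusted p = 8.3e-14) and 3.92 ± 0.14 (adjusted p = 6.1e-12). The more abundant miR-16-5p of the same seed, which has 2 loci, 1 of them in an intron of Dleu2 at chr14:61631936-61631957 (-), differed far less, with 48975 ± 4891 CPM in cerebellum and 31431 ± 1815 CPM in striatum (SD, n = 6 each; log2 fold change 0.64, adjusted p = 1.5e-06). miR-15a-5p had a log2 fold change of 0.40, which turned to -0.06 with total counts alone. miR-15b-5p did not pass (0.13, adjusted p = 0.42; -0.34 with total counts alone), and miR-322-5p was lower in cerebellum (-0.82, adjusted p = 2.2e-06). Of the 6 listed members of this seed, 4 were higher and 1 lower, beside 32.1% higher and 38.7% lower over all tested miRNAs.

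miR-34a-5p, a miRNA induced by p53 with its mature sequence at chr4:150068473-150068494 (+), was the most abundant of the 15 with large increases other than let-7. It had 15983, 18006 and 22060 CPM in cerebellum, against 983, 1594 and 1938 CPM in striatum, with a log2 fold change of 3.57 ± 0.16 (SE, adjusted p = 3.9e-11). miR-34c-5p, also of the miR-34 family, had 334, 584 and 900 CPM in cerebellum, against 62.1, 113 and 168 CPM in striatum (2.39 ± 0.29, adjusted p = 2.5e-06). miR-449a-5p, from an intron of Cdc20b at chr13:113037549-113037570 (+), carries the miR-34a seed and is known from cells with motile cilia, yet it was the lower one in cerebellum, with 31.8, 39.2 and 53.1 CPM in cerebellum, against 151, 170 and 183 CPM in striatum (-2.07 ± 0.11, adjusted p = 3.9e-10). The seed total of miR-34a-5p, miR-449a-5p, miR-34b-5p and miR-449c-5p, which miR-34a-5p dominates, had a log2 fold change of 3.60. Seed totals have scaling factors of their own, so 3.60 is not comparable with the 3.57 of miR-34a-5p alone. miR-34c-5p has no sequence entry and is not in the seed total.

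Lists of miRNAs known from other cell types were also compared. The counts of every list, above and below, stand beside 32.1% higher and 38.7% lower over all tested miRNAs. Of the list of choroid plexus and ependyma miRNAs, 3 of the 4 tested members were higher and 1, miR-449a-5p, was lower in cerebellum. miR-204-5p, hosted in an intron of Trpm3 at chr19:22750610-22750631 (+) and abundant in choroid plexus, had 443, 581 and 706 CPM in cerebellum, against 58.0, 64.6 and 78.6 CPM in striatum (log2 fold change 3.13 ± 0.12, SE, adjusted p = 8.1e-12). The 5 markers of this cell type summed to 892 to 1602 CPM in cerebellum libraries and 287 to 395 CPM in striatum libraries, and 1 of them, miR-211-5p, was at 0 in all cerebellum libraries. The part of these cells in the results on miR-204-5p, miR-34c-5p and the Htr2c miRNAs was not tested. Of the red cell list, 1 of 2 tested members passed: miR-486a-5p/486b-5p was higher by 2.03 on the log2 scale (adjusted p = 1.2e-05). miR-144-3p did not pass (0.67, adjusted p = 0.45) and ranged from 4.21 to 72.1 CPM in cerebellum and from 2.28 to 58.3 CPM in striatum. All 5 tested vessel miRNAs were higher, with a median log2 fold change of 0.70, led by miR-145a-5p (0.89) and miR-145a-3p (0.84); with total counts alone 3 were higher and none lower, and miR-126a-3p turned to -0.11.

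Muscle miRNAs were counted in both regions. miR-206-3p, at chr1:20679055-20679076 (+) in an exon of the long noncoding RNA Gm28653, had 2184, 3183 and 3980 CPM in cerebellum, against 183, 228 and 295 CPM in striatum, with a log2 fold change of 3.71 ± 0.16 (SE, adjusted p = 3.9e-11). In the 5 naive wild-type cortex libraries it averaged 26.9 CPM. miR-1a-3p, the other abundant muscle miRNA, differed less (1.04, adjusted p = 2.2e-06), with 1636 to 3070 CPM in cerebellum and 1005 to 1173 CPM in striatum. The marker rows of muscle summed to 4850 to 6185 CPM in cerebellum and 1222 to 1460 CPM in striatum, and of these miR-133a-3p/133b-3p had 91 to 145 counts per cerebellum library and 14 to 29 per striatum library. Of the 5 tested members of the muscle list 4 were higher, with a median of 1.66, and the part of muscle tissue in these values was not tested.

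Other miRNAs called higher with large changes were regulators with wider expression. miR-181c-5p had 189, 225 and 260 CPM in cerebellum, against 29.3, 41.1 and 52.9 CPM in striatum (log2 fold change 2.45, adjusted p = 2.9e-10), and miR-181d-5p, 142 bases from it within an intron of Nanos3, had a log2 fold change of 1.96 (adjusted p = 1.2e-08). The more abundant miR-181a-5p and miR-181b-5p, from chromosome 1 and another locus, differed less, with log2 fold changes of 0.76 and 0.62. miR-99a-5p (2.05, adjusted p = 1.2e-10) and miR-100-5p (1.07, adjusted p = 9.7e-08) were higher, whereas miR-99b-5p of the same seed did not pass (-0.02, adjusted p = 0.90; 0.34 under upper quartile scaling). miR-130a-3p (2.10, adjusted p = 8.1e-12), miR-194-5p (2.21, adjusted p = 4.2e-11) and miR-30b-5p (1.12, adjusted p = 6.4e-08) completed the 15. All 6 tested miR-30 and miR-384 members were higher with a median of 0.49, but with total counts alone 2 were higher and none was lower. Of the large cluster in an intron of Sfmbt2, 9 of 10 tested members were higher and miR-466i-5p was lower, with a median of 1.12. Several of its members differ by few bases, so their counts are uncertain. The tested members averaged from only 1.29 to 109 CPM over the 12 libraries. Members that share a locus are not independent of each other. The miR-99/100 and miR-125 list, with 2 of 5 tested members higher and 1 lower, had 4 higher and none lower under upper quartile scaling and 2 higher and 3 lower with total counts alone.

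**Figure D4:**
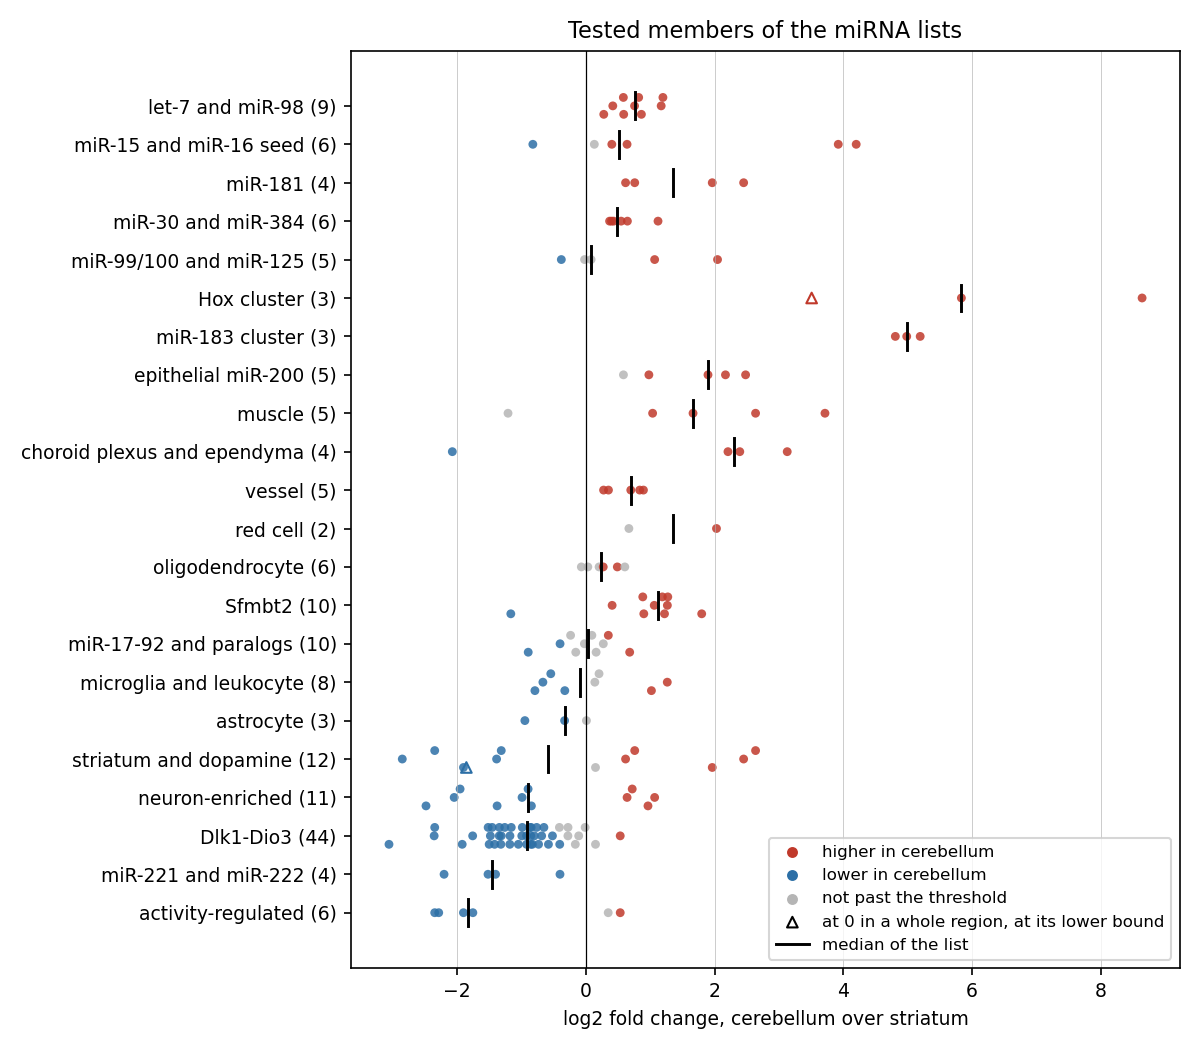
Each point is a tested member of a miRNA list, placed by its log2 fold change, cerebellum over striatum; red points were higher and blue ones lower at an adjusted p of 0.05, black bars are medians, and open triangles are members at 0 in a whole region, at their bound. The 44 members from the Dlk1-Dio3 locus have a median of -0.92 and the 9 of let-7 and miR-98 a median of 0.76.

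miR-3099-3p, in an intron of Usp29 at chr7:6803638-6803659 (+), had the largest fitted difference of the tested miRNAs, with 0 counts in every cerebellum library, against 826, 917 and 1153 CPM in striatum. It was at least 3075-fold lower in cerebellum against a floor of 3 counts per library. It was also at 0 in all 24 cerebellum libraries of the series. The same miRNA was listed at 0 in 4 of 23 cortex libraries and 1 of 24 striatum libraries, while the lowest counts of the other libraries were 3384 in cortex and 6928 in striatum, so no library held a count between 0 and these values. A count of 0 for this miRNA therefore also appears in regions whose other libraries hold many counts of it, and the cause was not tested. Over the 12 libraries compared here, the next miRNA by mean count among those at 0 in a whole region was miR-377-3p, which was not tested and averaged 64.2 counts in striatum. In all, 8 tested miRNAs were at 0 in a whole region, 5 in cerebellum and 3 in striatum.

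miR-139, in an intron of Pde2a, the gene of a phosphodiesterase that degrades cyclic nucleotides, was lower in cerebellum on both arms. miR-139-5p, at chr7:101475382-101475403 (+), had 609, 696 and 852 CPM in cerebellum, against 21283, 24893 and 25606 CPM in striatum. miR-139-3p had 10.8, 15.8 and 21.0 CPM in cerebellum, against 752, 916 and 1132 CPM in striatum. The regions lay far apart on both arms, with log2 fold changes of -5.07 ± 0.10 (SE, adjusted p = 1.8e-14) and -5.89 ± 0.17 (adjusted p = 3.6e-13). Cortex averaged 7150 CPM for miR-139-5p, between the other regions.

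miR-187-3p had 563, 625 and 664 CPM in cerebellum, against 4857, 5019 and 5707 CPM in striatum (log2 fold change -3.06 ± 0.07, SE, adjusted p = 3.0e-14). Cortex averaged 217 CPM, below both. miR-383-5p, on the list of striatum and dopamine miRNAs, had 13.1, 16.3 and 17.9 CPM in cerebellum, against 99.2, 115 and 129 CPM in striatum (-2.85 ± 0.10, adjusted p = 5.6e-12). miR-31-5p, at chr4:88910614-88910635 (-), had 172, 184 and 196 CPM in cerebellum, against 847, 893 and 946 CPM in striatum (-2.28 ± 0.06, adjusted p = 3.6e-13), and was higher still in cortex, at 1266 CPM. miR-760-3p fell by 2.66 on the log2 scale in cerebellum relative to striatum (adjusted p = 2.1e-10). Of the 12 tested striatum and dopamine miRNAs, 5 were higher and 6 lower, beside 32.1% higher and 38.7% lower over all tested miRNAs. The miR-181 members were higher, and the miR-7 and miR-383 members were lower.

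Neuronal miRNAs were found among both the higher and the lower ones. miR-124-3p, a neuron-specific miRNA, had 14898, 19184 and 22249 CPM in cerebellum, against 7336, 9191 and 9791 CPM in striatum (log2 fold change 1.07, adjusted p = 1.9e-07). miR-9-5p, which acts in neural progenitors and neurons, had 35931, 37986 and 43602 CPM in cerebellum, against 21890, 25373 and 27514 CPM in striatum (0.64, adjusted p = 1.6e-06). miR-137-3p, which lies in a schizophrenia risk locus in humans, had 786, 1273 and 1642 CPM in cerebellum, against 5724, 7207 and 8243 CPM in striatum (-2.48, adjusted p = 1.2e-09). miR-138-5p, which limits the size of dendritic spines, had 7675, 8539 and 9207 CPM in cerebellum, against 30458, 32867 and 36871 CPM in striatum (-1.95, adjusted p = 2.1e-12). miR-128-3p, a regulator of neuronal excitability with a hairpin in an intron of R3hdm1 and a second locus, had 16334, 19184 and 21202 CPM in cerebellum, against 33019, 35009 and 37575 CPM in striatum (-0.90, adjusted p = 2.1e-08). None of these ranges overlapped between the regions, as for 53.9% of all tested miRNAs. Of the 11 tested neuron-enriched miRNAs 4 were higher and 7 lower, beside 32.1% higher and 38.7% lower over all tested miRNAs. The 4 higher ones were the arms of miR-124 and miR-9, and the 7 lower ones include both arms of miR-129. Arms of a hairpin are not independent of each other. The 4 rows that marked neurons summed to 68798 to 87081 CPM in cerebellum and 70745 to 81694 CPM in striatum, ranges that overlap. miR-153-3p (-2.05) and miR-218-5p (-1.38) were among the lower ones. miR-7a-5p and miR-7b-5p, which share a seed and bind the circular RNA Cdr1as, fell by 1.39 and 1.31.

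On the list of miRNAs induced by neuronal activity, the lower ones were the arms of miR-132 and miR-212. miR-132-3p, which is induced by the transcription factor CREB, had 79.7, 93.4 and 101 CPM in cerebellum, against 284, 347 and 398 CPM in striatum, with a log2 fold change of -1.90 ± 0.10 (SE, adjusted p = 2.1e-10). miR-212-3p, 258 bases from it on chromosome 11, had a log2 fold change of -2.35 ± 0.12 (adjusted p = 2.1e-10). Of the 6 tested members of this list 4, the arms of miR-132 and miR-212, were lower, 1, miR-134-5p, was higher (0.53) and 1 did not pass. The median of the 6 was -1.83, beside -0.08 over all tested miRNAs. The 4 lower arms come from neighbouring hairpins and are not independent of each other, and the median rests on them.

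miR-221-3p, a repressor of the cell cycle inhibitor p27 in other tissues, had 142, 185 and 193 CPM in cerebellum, against 719, 802 and 977 CPM in striatum (log2 fold change -2.20 ± 0.10, SE, adjusted p = 5.8e-11). miR-222-3p, 571 bases away on chromosome X, had a log2 fold change of -1.40 (adjusted p = 1.3e-08). All 4 tested arms of the pair were lower, beside 38.7% lower over all tested miRNAs, and under upper quartile scaling 3 of them were. The arms come from neighbouring hairpins and are not independent of each other.

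The Dlk1-Dio3 locus on chromosome 12 is an imprinted domain whose maternal copy expresses one of the largest miRNA clusters of placental mammals, mainly in brain. Of its 44 tested miRNAs 36 were lower in cerebellum, 1 was higher and 7 did not pass, beside 38.7% lower and 32.1% higher over all tested miRNAs. The median log2 fold change was -0.92. The locus took 2.16% ± 0.191 of counts in cerebellum and 4.36% ± 0.212 in striatum (SD, n = 6 each). The count of lower members was 34 to 43 over the 4 scalings. miR-431-5p fell by 2.36, miR-409-3p by 2.35 and miR-409-5p by 1.91, with libraries that did not overlap. miR-127-3p, the most abundant of the named members, had 7000, 7593 and 8195 CPM in cerebellum, against 10200, 11016 and 11295 CPM in striatum (-0.52, adjusted p = 8.3e-07). miR-134-5p was the member that was higher, with 138 to 175 CPM in cerebellum and 95.6 to 110 CPM in striatum. Neither miR-154-5p (-0.01, adjusted p = 0.90; 0.35 under upper quartile scaling) nor miR-382-5p (0.15, adjusted p = 0.063; -0.32 with total counts alone) passed. The members share a locus and are not independent of each other.

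Glial lists had members in both directions or with small changes. Of 6 tested oligodendrocyte miRNAs, 2 were called higher, miR-338-3p (log2 fold change 0.49, adjusted p = 0.0059) and miR-219a-2-3p (0.27, adjusted p = 0.030), and 4 did not pass. Under upper quartile scaling 5 were higher and none lower, and with total counts alone none was higher, 2 were lower and miR-219a-2-3p turned to -0.19. The call of miR-219a-2-3p was lost in 2 of the 12 fits that left out a library. Of 3 astrocyte miRNAs, all of the miR-29 family, 2 were lower; miR-29b-3p fell by 0.95 on the log2 scale (adjusted p = 2.7e-04). miR-29a-3p fell by 0.33 (adjusted p = 0.039), a call lost in 8 of the 12 fits that left out a library. Under upper quartile scaling miR-29a-3p turned to 0.03. Of the 8 tested miRNAs of microglia and leukocytes, 2 were higher, miR-155-5p (1.26, adjusted p = 3.9e-08) and miR-223-3p (1.02, adjusted p = 3.7e-06), and 4 were lower, led by miR-146a-5p (-0.79, adjusted p = 6.9e-05); under upper quartile scaling 4 were higher and 1 lower, and with total counts alone 2 and 5. The call of miR-142a-3p (-0.33) was lost in 8 of the 12 fits that left out a library. The 4 marker rows of these cells summed to 147 to 195 CPM in cerebellum and 134 to 214 CPM in striatum, ranges that overlap. Of the 10 tested miR-17-92 miRNAs 2 were higher and 2 lower, against 5 and 1 under upper quartile scaling and 0 and 6 with total counts alone. The list of epithelial miRNAs holds the miR-200 family and miR-375-3p, which is not of that family. Of its 5 tested members 4 were higher. The most abundant, miR-375-3p, had 13.9 to 81.5 CPM in cerebellum and 5.50 to 11.9 CPM in striatum (2.17, adjusted p = 2.1e-04). The tested miR-200 family members averaged only 4.16 to 6.18 CPM over the 12 libraries.

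Cortex, extracted with the same kit as striatum, gives another level for the 30 miRNAs with the largest changes. On the log2 scale its mean was nearer to striatum than to cerebellum for 11 of the 15 higher and 10 of the 15 lower miRNAs. It lay between the other regions for 10 of the higher and 12 of the lower ones. The 30 were chosen for the distance between cerebellum and striatum, and this choice favours a cortex level between them. These counts were not set beside all tested miRNAs, so they are not read as a result about region or kit. miR-34a-5p, at 8077 CPM in cortex, and let-7c-5p, at 126872 CPM, were nearer to cerebellum. miR-449a-5p, at 12.0 CPM, was below both. The cortex libraries numbered 5 and were not tested here.

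Seed families were tested as sums over members with the same bases 2 to 8, and hold only miRNAs with a sequence entry. miR-34c-5p, miR-30b-5p and miR-30d-5p are thus in no family. The sums were scaled with TMM factors of their own, so their fold changes are not comparable with those of single miRNAs. For miR-139-5p, the only member of its family, the log2 fold change was -4.89 as a family and -5.07 alone. Of 398 families 283 (71.1%) differed, 132 higher (33.2%) and 151 lower (37.9%). Families are named only from the 8 largest called changes each way. Those with several members included miR-10a/10b (log2 fold change 6.50, adjusted p = 1.6e-09) and the miR-34/449 seed (3.60, adjusted p = 8.7e-12). The others were miR-204/211 (3.31, adjusted p = 4.6e-12) and miR-130/301 (1.91, adjusted p = 1.4e-11). All of these were higher in cerebellum. Families with several members outside the 8 each way were not ranked against them. Members of a family did not always share a direction. Of 23 seeds with at least 2 members of 10 CPM or more, all members with an entry were higher for 9, all were lower for 3, and for 5 some were higher and others lower.

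The ratio of the arms of a hairpin does not depend on the scaling of a library. It was tested for 78 hairpins with at least 50 counts on average on each arm, and 40 (51.3%) differed between the regions: 28 (35.9%) had relatively more 5p in cerebellum and 12 (15.4%) more 3p. This split depends on the count minimum: it was 7 and 7 of 29 hairpins at 500 counts an arm, and 35 and 25 at 10 counts. miR-1298 changed most, with a log2 ratio of 5p to 3p of 5.80 ± 0.39 in cerebellum and 2.52 ± 0.10 in striatum (SD, n = 6 each), a difference of 3.28 ± 0.15 (SE, limma, adjusted p = 2.5e-10). Its 5p arm was higher in cerebellum, as given above, while its 3p arm, with 48 to 125 counts per cerebellum library and 169 to 205 per striatum library, was lower (log2 fold change -0.75, adjusted p = 0.0013). The arms are these:
miR-1298-5p: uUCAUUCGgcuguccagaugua
miR-1298-3p: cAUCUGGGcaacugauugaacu
miR-92b went the other way, with a log2 ratio of -3.30 ± 0.28 in cerebellum and -0.62 ± 0.16 in striatum, a difference of -2.68 ± 0.13 (adjusted p = 2.5e-10). Its 5p arm had 56 to 85 counts per cerebellum library and 657 to 1569 per striatum library, and its 3p arm 453 to 1034 and 974 to 2634 counts in the same order of regions. The arms are these:
miR-92b-5p: aGGGACGGgacguggugcaguguu
miR-92b-3p: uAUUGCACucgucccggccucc
For miR-221 the difference was 1.81 ± 0.10 (adjusted p = 9.5e-10), with the dominant 3p arm lower in cerebellum by 2.20 and the 5p arm by 0.40. For let-7d it was 2.21 ± 0.38 (adjusted p = 2.3e-04), with 43 to 334 counts of the 3p arm in cerebellum libraries and 600 to 774 in striatum libraries. miR-485 (1.78), miR-154 (1.16), miR-411 (1.00), miR-337 (-1.37) and miR-431 (-1.21), all from the Dlk1-Dio3 locus, changed their arm ratios in different directions.

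**Figure D5:**
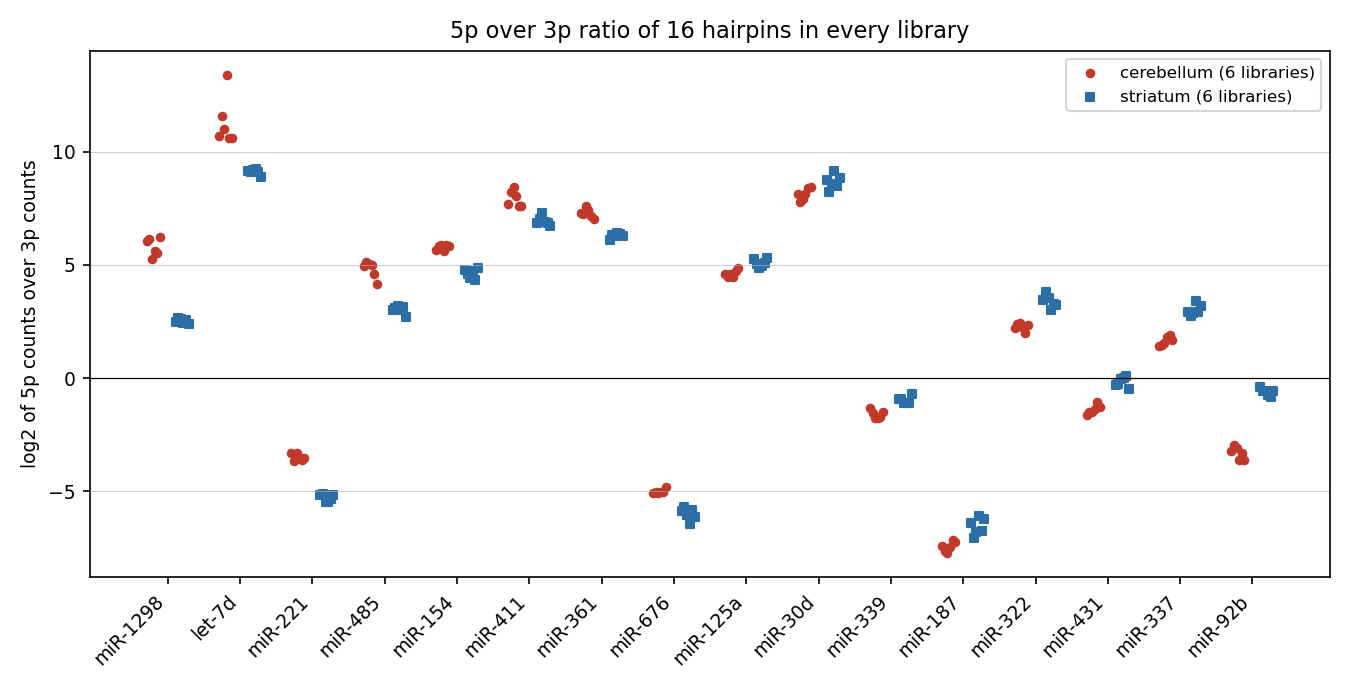
The log2 ratio of 5p to 3p counts is plotted for the 8 hairpins with the largest differences each way, in each cerebellum library, left, and each striatum library, right, in order of the difference. miR-1298 leads with a difference of 3.28 and miR-92b ends the row with -2.68; 1 cerebellum library of let-7d lies at 13.4, above the others.

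The same contrast was available in 3 other groups, with other libraries. It gave 380 calls of 530 miRNAs (71.7%) in wild-type mice after crush, 389 of 536 (72.6%) in naive Thap1+/- mice and 292 of 501 (58.3%) in Thap1+/- mice after crush. Of the 384 miRNAs called in naive wild-type mice, 374, 376 and 366 were tested in these groups in that order, and 343, 345 and 267 were called in the same direction, with 0, 0 and 1 in the opposite direction. Of the 30 miRNAs with the largest changes, 29 were called in the same direction in all 3 groups, and miR-3099-3p was not tested in Thap1+/- mice after crush. Log2 fold changes of miR-195a-5p were 4.20 in naive wild-type mice, 4.27 in wild-type mice after crush, 4.20 in naive Thap1+/- mice and 4.19 in Thap1+/- mice after crush. Those of miR-139-5p were -5.07, -4.93, -4.93 and -4.70 in the same groups. A test of the difference of the region contrast between the 4 groups passed for 3 of 634 miRNAs (0.473%).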

How the data were processed

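Mature miRNA levels were measured in 12 small RNA libraries, 6 per region, which the labels call biological replicates. The columns carry the same 6 numbers in both regions, but the sources do not say whether a shared number marks a shared mouse. The test treats the libraries as unpaired, so p-values measure the spread between these libraries. The authors deposited comparison tables that hold a count of reads per mature miRNA and library, and featureCounts 1.6.4 and R 4.1.0 are the tools listed in the submitters' processing notes. For the aligner, the genome build and the handling of molecular identifiers, the sources used here give nothing. A cerebellum and a striatum table were joined by miRNA name, and 284 other columns of per-sample values were not used. Counts were tested with edgeR 4.0.16 in R 4.3.3 (TMM, filterByExpr, quasi-likelihood test, Benjamini-Hochberg over all 542 tested miRNAs; glmTreat for a fold change of 2), seed family sums likewise, and log2 arm ratios (pseudocount 0.5) with limma 3.58.1. DESeq2 1.42.0 was an alternative. Plots were made in Python 3.11.15 (matplotlib 3.10.9). The scripts were tested on simulated data. Replicate libraries were compared for duplicates, and none were found. Depth is 10545342 to 12381246 counts per library; floors of 3 counts cover counting error only.

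Named are the 15 miRNAs called higher and the 15 called lower with the largest log2 fold changes at a mean of at least 100 CPM, the 5 most abundant of each region, list members at a mean of at least 10 CPM, and the 8 largest called changes each way of seed families and arm ratios. The members and lists were chosen with earlier results of these data known. Sequences and coordinates are from RefSeq on GRCm38.p6, and host genes from GENCODE vM21. Alternatives were other scalings, filters, left-out libraries, a replicate block and other sets of libraries in the fit; total count scaling was added after seeing the data.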

Additional observations from a re-analysis of the deposited data

Results flagged for a closer look

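In 98 groups of 6 libraries checked for a value far from the others, 4 stood apart; chance flags about 1 in 20 groups. In cerebellum, the log2 5p to 3p ratio of let-7d was 13.4 in library 31, against 10.6 to 11.6 in the other cerebellum libraries, and that of miR-676 was -4.81 in library 96, against -5.09 to -5.02 in the others. In striatum, library 31 had 181 CPM of miR-30b-5p, against 245 to 266 in the others, and 1153 CPM of miR-3099-3p, against 826 to 944 in the others.

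The difference between cerebellum and striatum itself differed between the 4 groups of mice for 3 miRNAs in edgeR's quasi-likelihood test of the interaction. They are named here after their values were seen. miR-6540-3p (adjusted p = 0.00263) had log2 fold changes, cerebellum over striatum, of 0.47 in naive and 0.61 in crushed wild-type mice, -0.02 in naive and -0.47 in crushed Thap1+/- mice. let-7a-1-3p/7c-2-3p (adjusted p = 0.00597) had 0.93 and 1.26 in wild-type mice and 0.41 and -0.06 in Thap1+/- mice, in the same order of treatments. miR-335-5p (adjusted p = 0.0295) had -0.98, -0.85, -0.91 and -1.49 in the same order of groups.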

How the results depend on the processing

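Of 139 named miRNAs, 96 kept direction and call under every alternative run for them, and 109 did without total count scaling. All 22 were run for 129; the scaling without let-7 and miR-98 leaves out 9 members of that family, and the stricter filter leaves out miR-223-3p. Under upper quartile scaling the sign turned for miR-142a-3p (0.029), miR-154-5p (0.35), miR-23a-3p/23b-3p (0.29), miR-29a-3p (0.033), miR-376c-3p (0.25) and miR-99b-5p (0.34), and under the stricter filter for miR-154-5p (0.21) and miR-23a-3p/23b-3p (0.15). With total counts alone it turned for let-7i-5p (-0.058), miR-106b-5p (-0.30), miR-125a-5p (-0.40), miR-126a-3p (-0.11), miR-126a-5p (-0.18), miR-146b-5p (-0.33), miR-15a-5p (-0.060), miR-15b-5p (-0.34), miR-20a-5p (-0.11), miR-219a-2-3p (-0.19), miR-27a-3p/27b-3p (-0.43), miR-29c-3p (-0.44), miR-30c-5p (-0.066), miR-30e-5p (-0.025), miR-382-5p (-0.32), miR-384-5p (-0.10), miR-669c-5p (-0.051), miR-93-5p (-0.37) and miR-98-5p (-0.19). Under the stricter filter, which left fewer miRNAs to test, 97 of 306 differed beyond a fold change of 2 and 186 of 222 seed families differed, and 245 of 297 miRNAs differed in wild-type mice after crush and 193 of 280 in Thap1+/- mice after crush. With only members of at least 10 CPM, 179 of 213 seed families differed. With at least 500 counts an arm, 14 of 29 arm ratios differed, 7 each way. Under upper quartile scaling 5 miRNAs passed the test of the difference between the groups; the cause was not tested. Leaving out a library in turn gave 379 to 397 called miRNAs, 148 to 164 beyond a fold change of 2, 279 to 294 seed families and 35 to 40 arm ratios. Beyond a fold change of 2, upper quartile scaling gave 98 higher and 61 lower, and total counts alone 40 and 149, against 55 and 93 with TMM.

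Correlations of deviations between libraries of the same number in both regions ran from -0.01 to 0.17; 5 of 6 were positive, 2 were over 0.1 and 1 library matched its own number best. The test was set without pairs, and whether the numbers mark shared mice is not known. Red cell miRNAs ran alike by number, as given below, so a shared mouse remains possible. A replicate block by number gave 388 called miRNAs, 152 beyond a fold change of 2, 281 seed families and 45 arm ratios.

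A check of GC content covered 464 of the 542 tested miRNAs, 74.1% of those called higher and 91.9% of those called lower. Its Spearman correlation with the log2 fold change was -0.21, and -0.29 for the 140 with at least 100 CPM. Because coverage differed between the calls, no conclusion is drawn from it. Kit, side and region cannot be told apart, and miRNAs with few counts were not tested.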

Other observations

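Red cell miRNAs, chosen here after their values were seen, ran alike by library number in both regions. miR-144-3p had 662 counts in cerebellum and 777 in striatum in the libraries numbered 67, the highest of each region, and 38 and 32 counts in those numbered 31, the lowest of each. miR-451a had 51 counts in cerebellum and 49 in striatum in the libraries numbered 67 and 0 in both numbered 31.

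miR-744-5p, also chosen after its values were seen, was lower in cerebellum than in striatum (log2 fold change -1.39) and had a coefficient of variation of 44.7% over the cerebellum libraries, where it ranged from 165 to 636 CPM.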
